A study of Homo sapiens with 12 samples.

Results

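The Hippo pathway is a kinase cascade that holds the transcriptional coactivators YAP and TAZ in check. Among the 10 genes described here, LATS1, LATS2, STK3, STK4, SAV1, NF2, WWC1, WWC2 and TAOK1 encode kinases of that cascade and proteins that assemble it. The remaining gene is NUAK2, which encodes a kinase outside that cascade. All 10 are called members below. The members were chosen by name, each as the entry of the deposited table that carries its symbol, and all 10 were found among 31585 loci, each on a single entry. STK4 shares its entry with AB209315 and TAOK1 shares its entry with MIR4523, so their values belong to those entries as a whole. A locus was tested where 3 or more libraries reached an FPKM of 1, which held for 15055 loci, all 10 members among them.

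RNA was sequenced from A375 cells, a human melanoma line, transduced with an MSCV retroviral vector that carries IRES-Hygro. The 4 groups were an empty vector (Control), YAP-S127A, YAP-S127A,S94A and YAP-2SA, the last being YAP with S127A and S381A, and each group had 3 libraries, described as biological replicates. S127A and S381A remove sites that LATS kinases phosphorylate, the first being linked to retention of YAP in the cytoplasm and the other to its degradation, and S94A removes the contact with TEAD transcription factors. By the labels, every group thus carried the vector backbone and the selection marker, and no group was labelled as carrying unmutated YAP in the vector. All cells kept their own YAP1 and WWTR1 genes. The study describes independent RNA samples of stably transduced cells and does not say whether these came from separate transductions. The effect of a mutation and a difference between the transduced populations therefore cannot be told apart. The sample records give 24 h of culture before lysis, the study's methods give a longer time, and 1 field of the YAP-2SA records also lists S94A, which their titles do not. The libraries were grouped by title.

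In this cascade STK3 and STK4, bound to the scaffold SAV1, phosphorylate LATS1 and LATS2, which in turn phosphorylate YAP and TAZ so that these leave the nucleus and are degraded. NF2, WWC1 and WWC2 bring the kinases together at the cell membrane, and TAOK1 phosphorylates STK3 and STK4. NUAK2 stands apart, as an AMPK-related kinase that is reported to favour YAP activity rather than restrain it. The counts and medians of members below include NUAK2. Some of these genes are known to be switched on by YAP with TEADs, which has been described as a negative feedback loop, and the comparison of the 4 groups bears on whether transcript levels of the cascade differed between cells with different YAP mutants.

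TEAD proteins recognise the letters GGAATG, and the promoters of 3 members that were higher in YAP-2SA cells are shown because they hold these letters, with that of WWC1 beside them because WWC1 rose most and its window does not. Each sequence runs 5′ to 3′ from 250 bases before to 50 bases after the start of the gene in RefSeq on GRCh38.p14, and capitals mark GGAATG or, on the other strand, CATTCC.
LATS2: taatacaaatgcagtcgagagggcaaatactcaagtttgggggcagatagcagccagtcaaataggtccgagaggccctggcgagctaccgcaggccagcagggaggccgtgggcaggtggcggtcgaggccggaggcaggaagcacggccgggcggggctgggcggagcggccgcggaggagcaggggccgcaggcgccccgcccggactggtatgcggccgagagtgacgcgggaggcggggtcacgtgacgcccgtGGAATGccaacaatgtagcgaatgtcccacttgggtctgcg
WWC2: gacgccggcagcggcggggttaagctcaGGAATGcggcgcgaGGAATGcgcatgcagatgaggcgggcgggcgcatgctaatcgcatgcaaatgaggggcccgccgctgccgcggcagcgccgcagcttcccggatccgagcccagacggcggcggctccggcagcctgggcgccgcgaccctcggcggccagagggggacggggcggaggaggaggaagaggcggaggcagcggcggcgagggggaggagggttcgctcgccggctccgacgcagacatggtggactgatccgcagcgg
NUAK2: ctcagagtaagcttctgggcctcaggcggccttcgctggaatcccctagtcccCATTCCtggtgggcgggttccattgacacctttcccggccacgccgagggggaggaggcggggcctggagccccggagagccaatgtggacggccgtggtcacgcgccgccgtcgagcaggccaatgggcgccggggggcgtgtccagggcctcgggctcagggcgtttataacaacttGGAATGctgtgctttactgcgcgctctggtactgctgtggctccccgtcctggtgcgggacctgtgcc
WWC1: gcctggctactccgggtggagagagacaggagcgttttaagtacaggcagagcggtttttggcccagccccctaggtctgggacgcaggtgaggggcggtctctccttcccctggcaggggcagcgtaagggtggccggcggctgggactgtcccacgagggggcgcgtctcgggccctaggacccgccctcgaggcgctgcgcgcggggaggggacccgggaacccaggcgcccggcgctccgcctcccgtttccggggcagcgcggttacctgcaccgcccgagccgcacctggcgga
They lie at chr13:21061537-21061836 on the minus strand for LATS2, chr4:183099007-183099306 on the plus strand for WWC2, chr1:205321696-205321995 on the minus strand for NUAK2 and chr5:168291395-168291694 on the plus strand for WWC1. LATS2 holds 1 match, at bases 9 to 14 after the start. WWC2 holds 2, at bases -222 to -217 and -208 to -203 from the start. NUAK2 also holds 2, of which 1 reads CATTCC, at -197 to -192, and the other GGAATG, at -18 to -13. A promoter entry was found for 9 of the 10 members, all but STK3, and these 3 of 9 held the letters on either strand. LATS1, NF2 and TAOK1 had more than 1 promoter entry, none with a match. Counted by promoter entry and not by gene, 14.03% of 35116 promoters of the same length held the letters, so the 2 shares are not like for like. The longer GGAATGT was in no promoter of a member and in 3.46% of all promoters. A match is only a stretch of letters, and no binding was measured here.

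The deposited values are log2(FPKM + 1), where FPKM is fragments per kilobase of transcript, scaled to the mapped fragments of the library, and FPKM is used below for levels. Read counts are not part of the file, which leaves sequencing depth unknown, and the number of loci above 0 ran from 20161 to 20656 over the libraries. YAP1 was read first, as the gene that the vectors carry. Its level was 34.1 and 33.0 FPKM in the libraries labelled Control replicates 1 and 2 but 172 FPKM in the library labelled Control replicate 3, which lies within the 130 to 187 FPKM of the 9 mutant libraries. Among YAP targets, CTGF read 12.7 FPKM in that library against 12.7 and 12.2 FPKM in Control replicates 1 and 2. CYR61 read 19.7 there against 15.3 and 15.6 FPKM, and ANKRD1 0.335 against 0.638 and 1.26. AXL read 47.4 against 48.1 and 40.7 FPKM, and AMOTL2 25.7 against 24.8 and 20.4. All 5 lay below every YAP-S127A library. In YAP-S127A,S94A, where YAP1 read 149 to 162 FPKM, CTGF read 9.94 to 12.8 and CYR61 13.1 to 17.0 FPKM. ANKRD1 read 0.545 to 1.39, AXL 36.2 to 43.0 and AMOTL2 20.6 to 24.2 FPKM there. Whether Control replicate 3 can be told from YAP-S127A,S94A cells was not tested. The counts called against Control at an adjusted p under 0.05 are therefore given with and without Control replicate 3 for the members and for all listed pathway genes together. All other counts, the shares over all loci, the levels and the fold changes are given with that library unless stated. CTGF, CYR61, ANKRD1, AXL and AMOTL2, 5 known YAP targets, were all higher than Control in both YAP-2SA and YAP-S127A (limma). These were 5 of 5 each, where 22.9% and 4.56% of all loci were called higher. In YAP-S127A,S94A 0 of 5 were called, where 0.0864% of all loci were called higher and 0.093% lower. There AXL alone had an unadjusted p under 0.05, being lower (1 of 5).

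All members were expressed, and over the 12 libraries their mean level ran from 2.67 FPKM for NUAK2, at percentile 23.3 of the loci tested, to 23.6 FPKM for SAV1, at percentile 72.3. The kinases STK4 with 19.5 and STK3 with 16.3 FPKM, and NF2 with 14.6 FPKM, followed SAV1. TAOK1 at 9.57, WWC2 at 8.50, LATS2 at 8.17, LATS1 at 5.13 and WWC1 at 3.88 FPKM were lower. As this is RNA from whole cultures, fewer cells expressing a gene and less RNA per cell cannot be told apart.

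**Figure D1:**
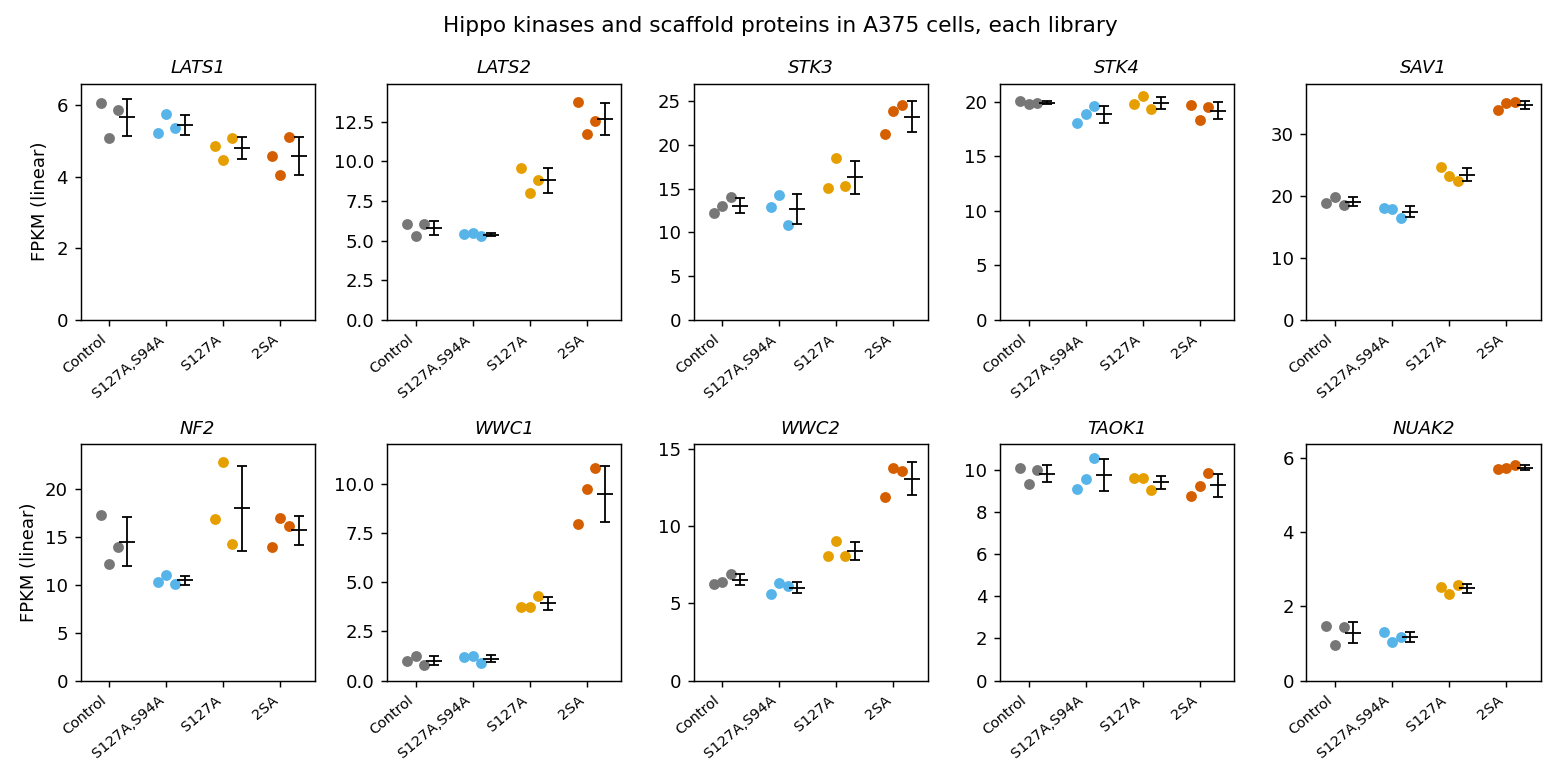
FPKM of each of the 10 genes in every library, with the 4 groups along the x axis, 1 point per library and, to the right of each group, its mean with an SD bar. LATS2, SAV1, WWC1, WWC2 and NUAK2 step up from Control and YAP-S127A,S94A to YAP-S127A and again to YAP-2SA, STK3 is highest in YAP-2SA, and the points of TAOK1 overlap between all groups.

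In YAP-2SA cells 6 genes rose, the kinases LATS2, STK3 and NUAK2 and the scaffold proteins SAV1, WWC1 and WWC2. LATS1 fell slightly, and STK4, NF2 and TAOK1 were not called. Thus 6 of 10 members were called higher than Control at an adjusted p under 0.05 (limma with Benjamini-Hochberg adjustment), where 22.9% of all loci were, and 1 of 10 was called lower, where 19.5% of all loci were. The median log2 fold change was 0.81 over the 10 members and 0.01 over all loci tested. WWC1, WWC2 and NUAK2 belong to the signature of YAP/TAZ-induced genes that the study selected in part on these libraries, so their direction is not independent evidence. With a ratio of mean FPKM over 2 required as well, LATS2, WWC1, WWC2 and NUAK2 were called, 4 of 10 where 7.59% of loci were. WWC2 stood just inside that limit with a ratio of 2.01, and SAV1 with 1.82 and STK3 with 1.78 just outside. Without Control replicate 3 the same 6 were called higher and 0 lower.

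**Figure D2:**
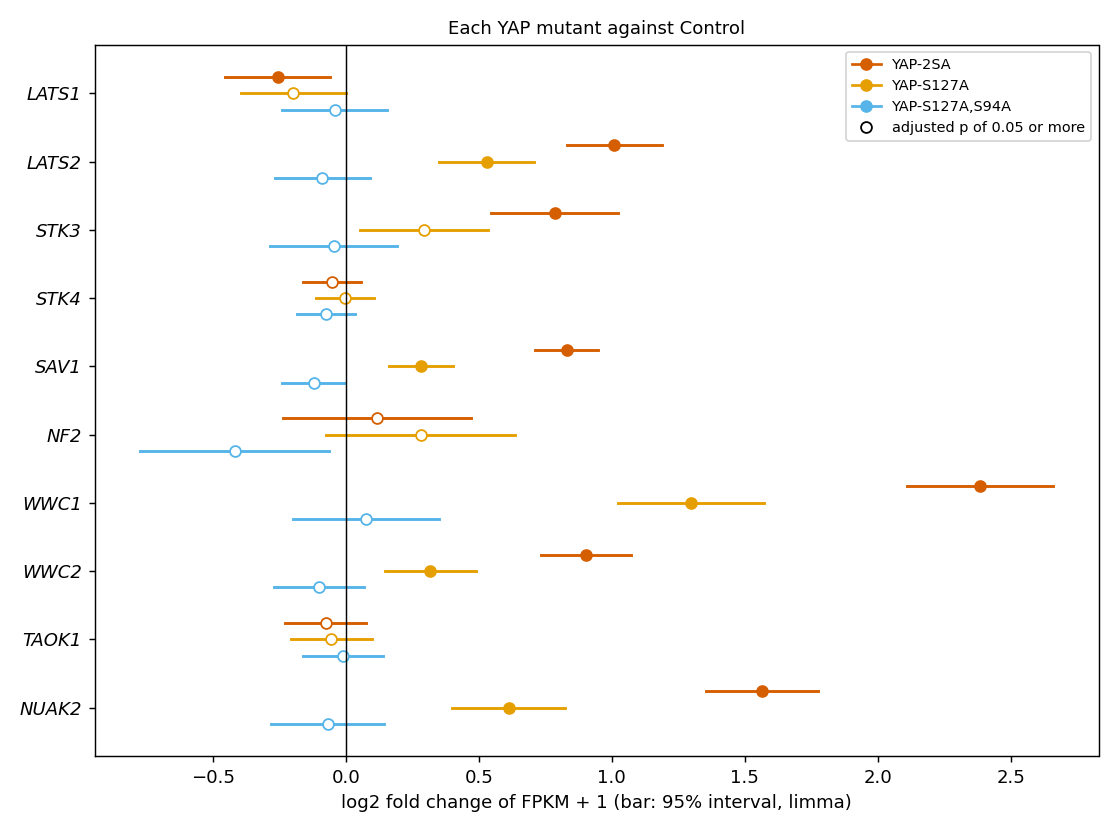
Log2 fold change of FPKM + 1 of each gene in YAP-2SA, YAP-S127A and YAP-S127A,S94A against the same 3 Control libraries, with 95% intervals from limma. Filled points have an adjusted p under 0.05; WWC1 in YAP-2SA, at 2.38, is farthest to the right, and all points of YAP-S127A,S94A are open.

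LATS2, one of the kinases that phosphorylate YAP directly, lies at chr13:21547175-21635725 on the minus strand (GRCh37, as are all gene positions below). Its FPKM was 6.02, 5.29 and 6.07 in Control, 5.39, 5.48 and 5.27 in YAP-S127A,S94A, 9.58, 8.03 and 8.82 in YAP-S127A and 13.8, 11.7 and 12.5 in YAP-2SA. The libraries of YAP-2SA lay above all of YAP-S127A, which lay above all of Control and YAP-S127A,S94A. Against Control the log2 fold change was 1.01 (SE 0.08, adjusted p = 2.6e-06) in YAP-2SA, a 2.19-fold ratio, and 0.53 (SE 0.08, adjusted p = 0.00277) in YAP-S127A, a 1.52-fold ratio.

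LATS1, the paralog of LATS2, lies at chr6:149979289-150039241 on the minus strand. Its FPKM was 6.06, 5.08 and 5.86 in Control, 5.23, 5.77 and 5.38 in YAP-S127A,S94A, 4.87, 4.46 and 5.08 in YAP-S127A and 4.59, 4.06 and 5.11 in YAP-2SA. The highest YAP-2SA library lay above the lowest Control library, so the groups overlapped. The log2 fold change in YAP-2SA against Control was -0.26 (SE 0.09, adjusted p = 0.0396), a ratio of 0.809. This call held in only 11 of 20 alternative settings, and the adjusted p reached 0.141 without YAP-2SA replicate 2. With Control replicate 1 or 3 left out it was 0.125 or 0.109. The call was also lost without YAP-2SA replicate 1 (0.0818), YAP-S127A replicate 1 (0.0519) and YAP-S127A,S94A replicate 1 or 3 (0.05002 and 0.0561). In YAP-S127A the log2 fold change of -0.20 was not called (adjusted p = 0.253).

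The proportion of the 2 LATS transcripts and that of the other paralogs are given as a description, with no test. LATS2 made up 50.6% ± 0.662 of the summed FPKM of LATS1 and LATS2 in Control (SD, n = 3), 49.6% ± 1.03 in YAP-S127A,S94A, 64.7% ± 1.46 in YAP-S127A and 73.5% ± 2.11 in YAP-2SA. Their sum was 11.5 ± 0.947 FPKM in Control, 10.8 ± 0.356 in YAP-S127A,S94A, 13.6 ± 1.0 in YAP-S127A and 17.3 ± 1.33 in YAP-2SA. With 3 libraries in each group, the smallest two-sided p that exact permutation of a single share allows is 0.1.

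**Figure D3:**
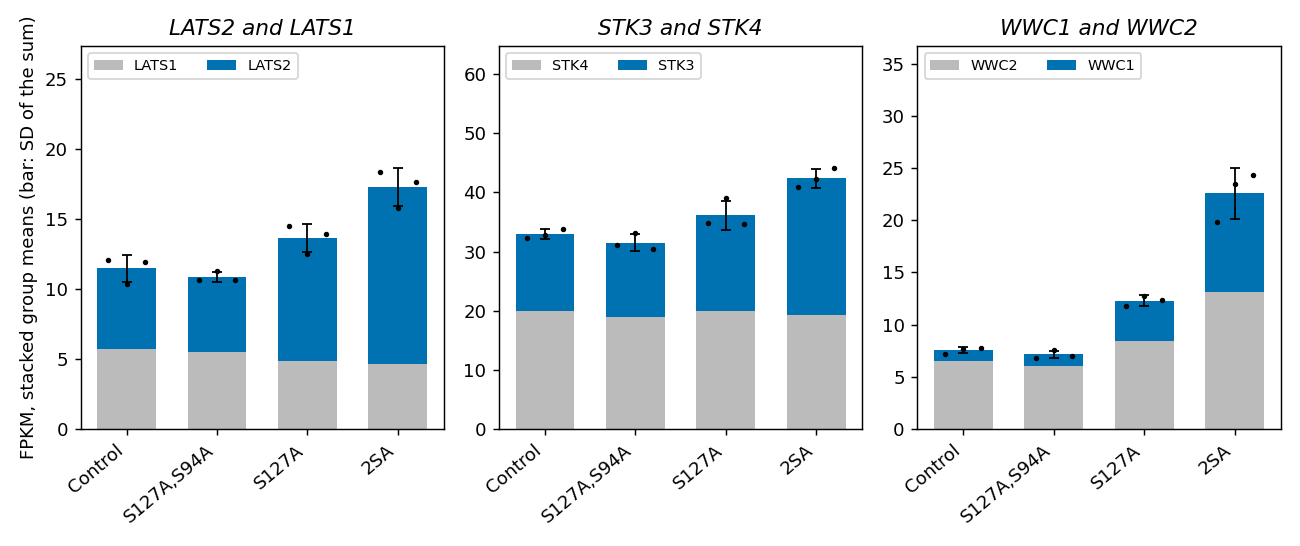
Stacked group means in FPKM of LATS2 on LATS1, STK3 on STK4 and WWC1 on WWC2, with the 4 groups along the x axis, 1 point per library for the sum and an error bar for its SD. The upper segment grows most in YAP-2SA, to 73.5%, 54.8% and 41.9% of the sum.

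The upstream kinases showed a similar contrast within a pair. STK3 (MST2), at chr8:99383456-99955055 on the minus strand, had an FPKM of 12.2, 13.0 and 14.0 in Control, 13.0, 14.2 and 10.8 in YAP-S127A,S94A, 15.1, 18.5 and 15.3 in YAP-S127A and 21.2, 23.9 and 24.6 in YAP-2SA. All YAP-2SA libraries lay above every other library. Against Control it differed by 0.78 on the log2 scale (SE 0.11, adjusted p = 0.000173) in YAP-2SA. In YAP-S127A, where the 3 libraries also lay above Control, it was 0.29 (95% interval 0.05 to 0.53) and was not called (adjusted p = 0.158).

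STK4 (MST1), at chr20:43595135-43708662 on the plus strand, read 20.1, 19.8 and 19.9 FPKM in Control, 18.1, 18.8 and 19.6 in YAP-S127A,S94A, 19.8, 20.5 and 19.4 in YAP-S127A and 19.7, 18.3 and 19.5 in YAP-2SA. The YAP-2SA and YAP-S127A,S94A libraries lay below Control without overlap, though by little. For STK4 the log2 fold change in YAP-2SA against Control was -0.05 (95% interval -0.16 to 0.06, adjusted p = 0.413). STK3 was 39.6% ± 1.74 of the summed FPKM of the pair in Control and 54.8% ± 2.56 in YAP-2SA (SD, n = 3), with 40.1% ± 3.96 in YAP-S127A,S94A and 44.9% ± 2.20 in YAP-S127A.

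TAOK1, the kinase above STK3 and STK4, lies at chr17:27717381-27878921 on the plus strand. Its FPKM was 10.1, 9.36 and 10.0 in Control, 9.08, 9.59 and 10.6 in YAP-S127A,S94A, 9.60, 9.61 and 9.06 in YAP-S127A and 8.75, 9.23 and 9.84 in YAP-2SA. All 4 groups overlapped. YAP-2SA against Control gave a log2 fold change of -0.08 (95% interval -0.23 to 0.07, adjusted p = 0.399).

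SAV1, the scaffold of STK3 and STK4, lies at chr14:51098776-51135024 on the minus strand. Its FPKM was 18.8, 19.9 and 18.5 in Control, 18.0, 17.8 and 16.5 in YAP-S127A,S94A, 24.6, 23.2 and 22.4 in YAP-S127A and 33.9, 35.0 and 35.1 in YAP-2SA. No 2 of these groups overlapped, and YAP-S127A,S94A was the lowest. Against Control, SAV1 changed by a log2 fold of 0.83 (SE 0.05, adjusted p = 5.0e-07) in YAP-2SA and 0.28 (SE 0.05, adjusted p = 0.0103) in YAP-S127A. The second call was lost when only the 6 libraries compared were fitted (adjusted p = 0.0991).

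WWC1 (KIBRA), a scaffold that binds LATS kinases and NF2, lies at chr5:167718650-167899308 on the plus strand. Its FPKM was 0.970, 1.26 and 0.793 in Control, 1.20, 1.23 and 0.905 in YAP-S127A,S94A, 3.71, 3.74 and 4.30 in YAP-S127A and 7.97, 9.74 and 10.8 in YAP-2SA. It lay near 1 FPKM in Control and YAP-S127A,S94A and was higher in both other groups, with no overlap. The log2 fold change against Control was 2.38 (SE 0.12, adjusted p = 8.5e-08) in YAP-2SA and 1.30 (SE 0.12, adjusted p = 0.000123) in YAP-S127A. The 1 added to FPKM shrinks the change of such a low gene, and the ratios of mean FPKM were 9.44 and 3.89.

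WWC2, the paralog of WWC1, lies at chr4:184020410-184241930 on the plus strand. Its FPKM was 6.25, 6.39 and 6.92 in Control, 5.63, 6.30 and 6.11 in YAP-S127A,S94A, 8.05, 9.03 and 8.04 in YAP-S127A and 11.9, 13.8 and 13.6 in YAP-2SA. The YAP-2SA libraries lay above all others and the YAP-S127A libraries above the Control libraries. YAP-2SA against Control gave 0.90 on the log2 scale (SE 0.08, adjusted p = 4.2e-06). In YAP-S127A it was 0.32 (SE 0.08, adjusted p = 0.0348), a 1.28-fold ratio, and this call held in 11 of 20 alternative settings. It was lost without either of Control replicates 1 and 2 (adjusted p = 0.0979 and 0.108), without any 1 of the YAP-S127A replicates (0.0654, 0.102 and 0.059), and without YAP-S127A,S94A replicate 3 (0.0571) or YAP-2SA replicate 3 (0.0525). WWC1 was 13.4% ± 3.09 of the summed FPKM of WWC1 and WWC2 in Control, 15.6% ± 2.39 in YAP-S127A,S94A, 31.9% ± 2.79 in YAP-S127A and 41.9% ± 2.08 in YAP-2SA (SD, n = 3).

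NF2 (merlin), which recruits LATS kinases to the membrane, lies at chr22:29999545-30094587 on the plus strand. Its FPKM was 17.2, 12.2 and 14.0 in Control, 10.3, 11.0 and 10.1 in YAP-S127A,S94A, 16.8, 22.8 and 14.2 in YAP-S127A and 14.0, 16.9 and 16.1 in YAP-2SA. In Control and YAP-S127A its libraries were more scattered on the log2 scale than those of any other member, with an SD of 0.23 and 0.33, and YAP-S127A,S94A lay below the rest without overlap. Against Control the log2 fold change was 0.12 (95% interval -0.24 to 0.47, adjusted p = 0.594) in YAP-2SA and 0.28 (-0.07 to 0.64, adjusted p = 0.382) in YAP-S127A.

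NUAK2, at chr1:205271191-205290873 on the minus strand, had the lowest mean of the 10. Its FPKM was 1.46, 0.968 and 1.44 in Control, 1.31, 1.04 and 1.17 in YAP-S127A,S94A, 2.53, 2.34 and 2.57 in YAP-S127A and 5.68, 5.71 and 5.81 in YAP-2SA. YAP-2SA lay above YAP-S127A and YAP-S127A above the other groups, again with no overlap. Relative to Control, the log2 fold change was 1.56 (SE 0.10, adjusted p = 3.2e-07) in YAP-2SA and 0.61 (SE 0.10, adjusted p = 0.00327) in YAP-S127A, with ratios of mean FPKM of 4.45 and 1.93. The second call was lost when only the 6 libraries compared were fitted (adjusted p = 0.0560).

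The changes in YAP-S127A and in YAP-2SA were measured against the same Control libraries and are set side by side here. In YAP-S127A against Control, LATS2, SAV1, WWC1, WWC2 and NUAK2 were called higher, 5 of 10 where 4.56% of all loci were, and 0 of 10 were called lower, where 1.75% were. At an unadjusted p under 0.05, for which no share over all loci is given, STK3 (higher) and LATS1 (lower) were added, 7 in all. Only WWC1 also had a ratio over 2, 1 of 10 where 2.07% of loci did. As a share of the log2 fold change in YAP-2SA, that in YAP-S127A was 54.4% for WWC1, 52.4% for LATS2, 39.1% for NUAK2, 37.5% for STK3, 35.1% for WWC2 and 34.0% for SAV1, the 6 genes that rose in YAP-2SA. Of the rest, LATS1 had -0.20 in YAP-S127A and -0.26 in YAP-2SA, and NF2, called in neither, had 0.28 and 0.12, the larger value being that in YAP-S127A. STK4 and TAOK1 had -0.003 and -0.06 in YAP-S127A, and -0.05 and -0.08 in YAP-2SA. Without Control replicate 3, 5 members were again called. With only the 6 libraries compared, 2 were called, LATS2 and WWC1.

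The difference between the mutants was tested directly. In YAP-2SA against YAP-S127A the 6 genes LATS2, STK3, SAV1, WWC1, WWC2 and NUAK2 were higher, 6 of 10 where 18.3% of all loci were, and 0 of 10 were lower, where 14.5% were, also at an unadjusted p under 0.05. The log2 fold change was 0.48 for LATS2 (SE 0.08, adjusted p = 0.00103), 0.49 for STK3 (SE 0.11, adjusted p = 0.00558) and 0.55 for SAV1 (SE 0.05, adjusted p = 2.2e-05). It was 1.09 for WWC1 (SE 0.12, adjusted p = 6.7e-05), 0.59 for WWC2 (SE 0.08, adjusted p = 0.000182) and 0.95 for NUAK2 (SE 0.10, adjusted p = 2.6e-05). The intervals for the others were -0.26 to 0.14 for LATS1, -0.16 to 0.06 for STK4, -0.52 to 0.19 for NF2 and -0.17 to 0.13 for TAOK1. Only WWC1 and NUAK2 also had a ratio over 2, 2 of 10 where 5.17% of loci did.

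**Figure D4:**
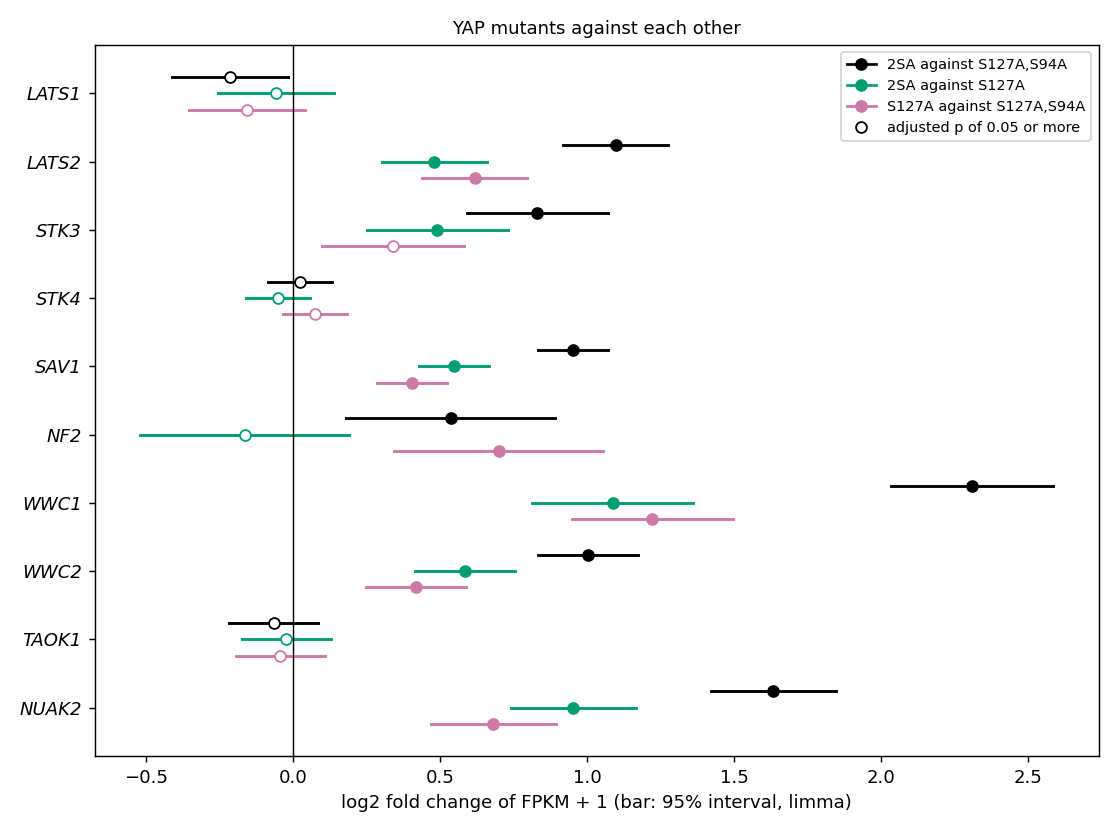
Log2 fold change of FPKM + 1 of each gene between the YAP mutants, with 95% intervals from limma and filled points for an adjusted p under 0.05. All 3 comparisons lie to the right of 0 for LATS2, STK3, SAV1, WWC1, WWC2 and NUAK2, and NF2 is filled only in the comparisons with YAP-S127A,S94A.

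The vector of YAP-S127A,S94A differs from that of YAP-S127A by the S94A change, which removes TEAD binding. In YAP-S127A,S94A against Control, 0 of 10 members were called in either direction by limma, where 0.0864% of all loci were called higher and 0.093% lower. At an unadjusted p under 0.05, for which no share over all loci is given, there were 2 of 10. These were NF2, with a log2 fold change of -0.42 (95% interval -0.77 to -0.06, ratio 0.724), and SAV1, with -0.12 (unadjusted p = 0.0456). The log2 fold changes of LATS2, WWC1, WWC2, STK3 and NUAK2 were -0.09, 0.07, -0.10, -0.05 and -0.07, and their 95% intervals reached up to 0.35. The libraries of NF2, SAV1 and STK4 lay below Control without overlap, 3 of 10 where 3.98% of all loci did so. None of the 20 alternative settings gave a call for a member.

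YAP-S127A was also compared directly with YAP-S127A,S94A, a comparison of cells transduced with vectors that differ by S94A. There LATS2, SAV1, NF2, WWC1, WWC2 and NUAK2 were higher, 6 of 10 where 6.36% of all loci were, and 0 of 10 were lower, where 4.31% were, also at an unadjusted p under 0.05. The log2 fold change was 1.22 for WWC1 (SE 0.12, adjusted p = 0.000139), 0.68 for NUAK2 (SE 0.10, adjusted p = 0.00125) and 0.62 for LATS2 (SE 0.08, adjusted p = 0.000769). It was 0.42 for WWC2 (SE 0.08, adjusted p = 0.00608) and 0.40 for SAV1 (SE 0.05, adjusted p = 0.000874). NF2 differed by 0.70 (SE 0.16, adjusted p = 0.0194), and this call was lost without YAP-S127A,S94A replicate 1 or 3 (adjusted p = 0.0631 and 0.0703) and when only the 6 libraries compared were fitted (0.0598). STK3, at 0.34 (95% interval 0.10 to 0.58), was not called (adjusted p = 0.0743). WWC1 and NUAK2 also had a ratio over 2, 2 of 10 where 2.54% of loci did.

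YAP-2SA was also set against YAP-S127A,S94A, which differ at 2 positions of YAP, so that the 2 changes cannot be told apart there. LATS2, STK3, SAV1, NF2, WWC1, WWC2 and NUAK2 were higher, 7 of 10 where 23.2% of all loci were, and 0 of 10 were lower, where 20.3% were. The log2 fold changes ran from 0.54 for NF2 (SE 0.16, adjusted p = 0.0197) to 2.31 for WWC1 (SE 0.12, adjusted p = 1.05e-07). The call of NF2 was lost without YAP-S127A,S94A replicate 1 or 3 (adjusted p = 0.0521 and 0.0590) and without YAP-2SA replicate 2 or 3 (0.0656 and 0.0568). LATS1, at -0.21, was the 1 member lower at an unadjusted p under 0.05 and was not called (adjusted p = 0.0766), but without YAP-2SA replicate 3 it was (adjusted p = 0.0407). With a ratio over 2 required, 4 of 10 were called, where 7.81% of loci were.

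Across the 12 libraries, LATS2, STK3, SAV1, WWC1, WWC2 and NUAK2 rose and fell together, with Pearson's r between 0.899 and 0.978 for their pairs, a description of points that fall into 4 groups sharing a scale per library. Among loci with a single symbol, those with the pattern most like WWC1 were ANXA8L2, NPPB, ANKRD2, VSTM1 and MARCH4, with r from 0.990 to 0.992. Those most like NUAK2 were AOX1, ALPK2, ESRG, RFTN1 and KRT18, with r from 0.994 to 0.995. Those most like SAV1 were ELL2, TUFT1, BTBD11, SEMA3A and VEGFC, with r from 0.991 to 0.994. KRT18, a keratin of simple epithelia, went from a mean of 179 FPKM in Control to 1164 in YAP-2SA, and NPPB, the precursor of a natriuretic peptide, from 0.0639 to 80.4.

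The rest of the pathway was taken from 4 lists of 73 genes, 65 of which were tested. The lists include YAP1, which the mutant vectors carry, so their counts are not of the cells' own genes alone. MAP4K1, RASSF2, FAT4, DCHS1, CRB1, CRB2, CRB3 and CDH1 were below the filter. In YAP-2SA against Control 32 of 65 were called higher, where 22.9% of all loci were, and 13 of 65 lower, where 19.5% were, with a median log2 fold change of 0.21. Without Control replicate 3 the counts were 31 and 13. In YAP-S127A against Control 11 of 65 were called higher, where 4.56% of all loci were, and 1 lower, where 1.75% were, and without Control replicate 3 the counts were 11 and 0. Against the same Control libraries, in YAP-S127A,S94A 0 were called in either direction (limma). At an unadjusted p under 0.05, for which no share over all loci is given, 1 was higher and 1 lower. Without Control replicate 3, 1 was called higher, and which gene this was is not given here. YAP1 then read 34.1 and 33.0 FPKM in Control against 149 to 162 FPKM in YAP-S127A,S94A.

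**Figure D5:**
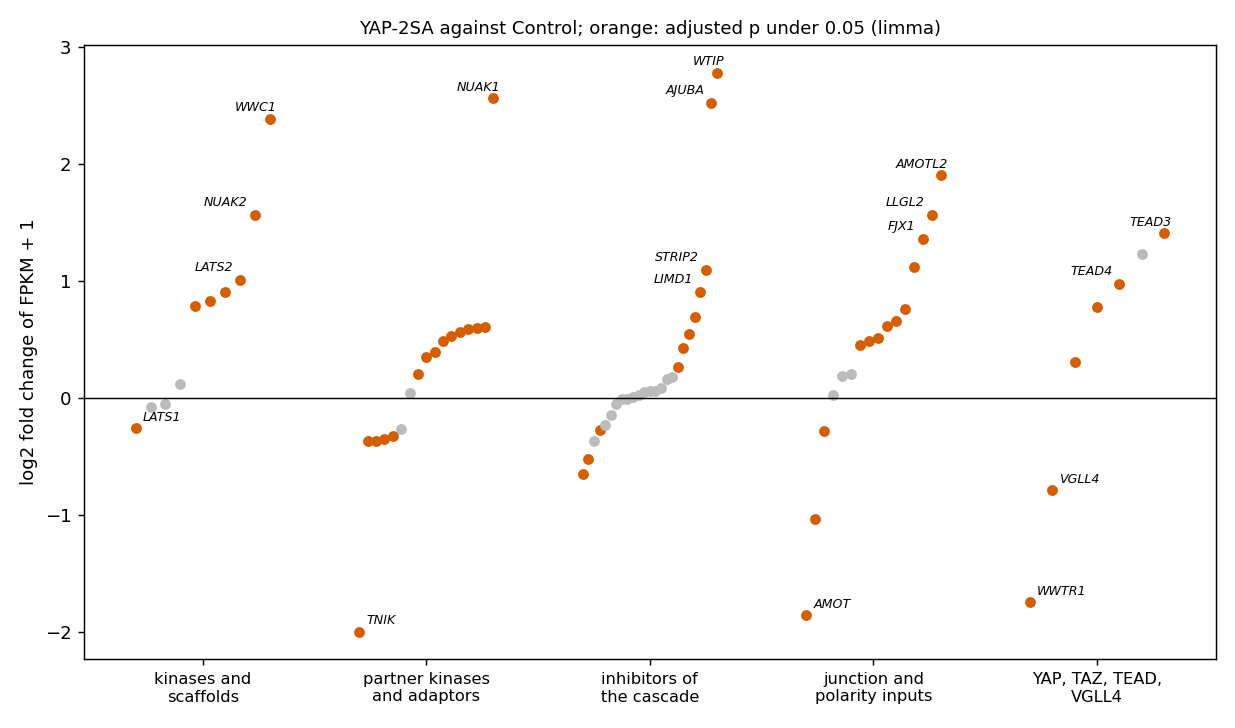
Log2 fold change of FPKM + 1 in YAP-2SA against Control for the 10 genes and 4 lists of other Hippo pathway genes, ordered within each list along the x axis, with 1 point per gene. Orange points have an adjusted p under 0.05; the grey point at 1.23 in the last list is YAP1, which the mutant vectors carry, and without Control replicate 3 it would be at 2.01.

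Of the partner kinases and adaptors of the cascade, 10 of 17 tested were called higher and 5 of 17 lower in YAP-2SA against Control, beside 22.9% and 19.5% of all loci. NUAK1, the paralog of NUAK2, went from 1.19 to 11.9 FPKM (log2 fold change 2.56, SE 0.09, adjusted p = 6.8e-09). TNIK, a kinase of the MAP4K family, went the other way, from 5.24 to 0.566 FPKM (-1.99 on the log2 scale, adjusted p = 5.0e-07). RASSF5, an adaptor that binds STK3 and STK4, and STK38, a kinase related to LATS1, rose by 0.60 and 0.59. Also called lower were MOB1B (-0.37), TAOK3 (-0.36), TAOK2 (-0.35) and STK38L, the paralog of STK38 (-0.33). In YAP-S127A only WWC3 and NUAK1 of this list were called, both higher, 2 of 17 where 4.56% of all loci were.

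Of the inhibitors of the cascade, 8 of 25 were called higher and 3 of 25 lower, counts near the 22.9% and 19.5% of all loci, with a median log2 fold change of 0.06. The 3 LIM proteins of the AJUBA family, which bind LATS kinases and restrain them, were among the 8. WTIP went from 1.14 to 13.6 FPKM (2.78 on the log2 scale, adjusted p = 9.6e-09), AJUBA from 8.07 to 50.9 FPKM (2.52, adjusted p = 1.5e-07) and LIMD1 rose by 0.91. STRIP2, of the STRIPAK phosphatase complex that acts on STK3 and STK4, rose by 1.09. In YAP-S127A 3 of 25 were called, AJUBA, LIMD1 and WTIP, all higher, where 4.56% of all loci were.

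Of the junction and polarity proteins, 10 of 16 tested were called higher, where 22.9% of all loci were, and 3 of 16 lower, near the 19.5% of all loci. AMOTL2, an angiomotin that binds YAP, went from 23.6 to 90.8 FPKM and its relative AMOT from 10.7 down to 2.24 FPKM, log2 fold changes of 1.90 and -1.85. AMOTL1, the other angiomotin, was also lower, at 22.7 FPKM against 47.4 in Control (-1.03, adjusted p = 1.9e-05). LLGL2, a polarity protein, rose by 1.56 and FJX1, of the Fat and Dachsous branch, by 1.35. In YAP-S127A 4 of 16 were called, AMOTL2, FJX1, PARD3 and LLGL1, all higher, where 4.56% of all loci were.

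At the transcriptional end, 4 of 7 were called higher and 2 of 7 lower in YAP-2SA, beside 22.9% and 19.5% of all loci. WWTR1, which encodes TAZ, went from 199 to 58.8 FPKM (-1.74 on the log2 scale, adjusted p = 9.5e-09) and VGLL4, a protein that competes with YAP for TEADs, fell by 0.79. TEAD3 and TEAD4 rose by 1.41 and 0.97. In YAP-S127A, TEAD3 and TEAD4 were called higher, 2 of 7 where 4.56% of all loci were, and WWTR1 lower, 1 of 7 where 1.75% were.

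Markers of cell types moved with the YAP-2SA group as well. Of 9 markers of the melanocyte and melanoma lineage, 5 reached 1 FPKM, and their summed level was 1155 to 1174 FPKM in Control and 614 to 662 in YAP-2SA, against 1061 to 1095 in YAP-S127A and 1186 to 1209 in YAP-S127A,S94A. VIM made up most of both sums, at 720 to 790 FPKM in Control and 563 to 619 in YAP-2SA. SOX10, a transcription factor that defines the lineage, was at 234 to 281 FPKM in Control and 4.53 to 7.25 in YAP-2SA. S100A1 was at 84.8 to 110 and 2.37 to 3.59 FPKM, and S100B at 41.3 to 51.7 and 0.605 to 1.03. MITF was at 5.01 to 11.0 and 30.1 to 41.0 FPKM, PMEL and MLANA stayed below 1 FPKM, and DCT was at 0. Of 4 fibroblast markers 3 reached 1 FPKM, with sums of 43.1 to 46.0 in Control and 69.4 to 79.0 in YAP-2SA. Most of the rise was COL1A1, at 0.236 to 0.428 FPKM in Control and 27.9 to 36.3 in YAP-2SA. PDGFRA, which shares its entry with FIP1L1 and LNX1, was at 41.2 to 44.3 and 38.5 to 40.2. LUM was at 1.13 to 1.79 and 1.91 to 2.86, and DCN at 0.315 to 0.692 and 0.0996 to 0.258. Of 4 epithelial markers 2 reached 1 FPKM, with sums of 6.28 to 7.65 in Control and 2.13 to 2.19 in YAP-2SA. These 2 went opposite ways. KRT14 was at 6.16 to 7.62 FPKM in Control and 0.362 to 0.551 in YAP-2SA, and KRT5 at 0 to 0.0777 and 1.37 to 1.67. Of 3 leukocyte markers LYZ alone reached 1 FPKM, with sums of 14.3 to 16.8 in Control and 2.35 to 2.84 in YAP-2SA. PTPRC and CD3E were at 0 in Control, and 0 of 3 endothelial markers reached 1 FPKM. The part of these shifts in the changes of the 10 genes was not tested.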

How the data were processed

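The authors sequenced 12 libraries, 3 per group, on HiSeq, aligned them to hg19 with the UCSC known genes by bowtie2 2.0.0 and tophat 2.0.4, assembled transcripts with cufflinks 2.0.2, and deposited log2(FPKM + 1) per locus. How reads with several alignments were shared is not given in the sources used here. Of 31588 entries, 3 identical ones were removed. FPKM steps of low loci gave no common ratio between libraries (at most 6.409% of loci), so no reads were recovered and the precision from depth is unknown. P-values reflect library-to-library spread alone, which may in part be technical.

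The deposited values of the 12 libraries were modelled together by limma 3.58.1 (R 4.3.3), with group means as coefficients and a trended prior variance, for 6 comparisons, with Benjamini-Hochberg adjustment over 15055 loci at a threshold of 0.05. The study's test on reads was not repeated. Ratios are of group mean FPKM. The 3 comparisons with Control share its libraries. Alternatives were median-ratio and quantile scaling, a pseudocount of 0.1, other filters, only the libraries compared, the replicate block, no trend, and each library left out.

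The members and lists were chosen with earlier results of these data known. Named were all members and, per list, up to 4 genes with the largest absolute log2 fold change called in YAP-2SA against Control, with the 5 loci most correlated with each of the 3 members of smallest p. Genes called in YAP-S127A, and MOB1B, TAOK2, TAOK3, STK38L, AMOTL1, KRT18 and NPPB, were named after their values were seen. Positions come from GENCODE on GRCh37, and promoters from RefSeq on GRCh38.p14. Figures were drawn with matplotlib 3.10.9. Replicate numbers were not taken as pairs: of 18 same-numbered pairs of libraries, 2 had deviations correlated over 0.1 (r from -0.149 to 0.163).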

Additional observations from a re-analysis of the deposited data

How the results depend on the processing

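The 6 rises in YAP-2SA against Control were called under each of 20 alternatives, and no called change reversed its sign. Over all members, comparisons and alternatives, 27 calls were lost and 1 was gained, all of LATS1, WWC2, NF2, SAV1 or NUAK2; the cause was not tested, though fits of fewer libraries hold fewer degrees of freedom. Depth is unknown, so what it limits could not be measured. With a pseudocount of 0.1 the log2 fold changes of WWC1 and NUAK2 in YAP-2SA against Control were 3.13 and 2.09. Requiring a fold over 2 left 4, 1, 2, 2 and 4 members in YAP-2SA and YAP-S127A against Control, YAP-2SA against YAP-S127A, and YAP-S127A and YAP-2SA against YAP-S127A,S94A. In the same order it left 2327, 372, 1672, 525 and 2395 of all loci, where 6375, 950, 4936, 1607 and 6546 were called without it, and 16, 4, 8, 4 and 16 genes of the pathway lists, where 45, 12, 36, 16 and 43 were. Fitting only the libraries compared gave 2 members, 447 loci and 7 list genes in YAP-S127A against Control, and 1066 loci in YAP-S127A against YAP-S127A,S94A. Leaving out 1 library at a time gave 621 (without Control replicate 2) to 889 loci in YAP-S127A against Control. It gave 961 (without YAP-S127A,S94A replicate 3; 1022 without replicate 1) to 1576 loci in YAP-S127A against YAP-S127A,S94A. In YAP-S127A,S94A against Control it gave 0 to 1 list genes, the 1 being higher without Control replicate 3 and lower without YAP-S127A,S94A replicate 2. With the replicate number as a block, 7, 5, 0, 6, 6 and 7 members were called in the 6 comparisons, the counts without the block, and loci called in YAP-S127A against YAP-S127A,S94A were 1771. The sum over several entries of a symbol was not run, as each symbol lies on 1 entry. Scaling moved the median log2 fold change of all loci by under 0.1.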
